A study of Mus musculus with 10 samples.

Results

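The proteasome genes in day 2 mouse myotubes were followed through a knock-down of the muscle long non-coding RNA Charme. They were taken by symbol, as every gene named Psma to Psmg followed by a number with a mean of at least 1 FPKM (fragments counted per unit of transcript length and of library size) over the 6 RNA-seq libraries. This gave 45 of the 11228 genes in the expression table. One of them, Psmc3ip, carries a matching symbol but encodes a meiotic recombination factor, so 44 are proteasome subunits, assembly factors or regulators. The rule uses level alone and not the response to the knock-down.

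The proteasome is the protease that degrades ubiquitin-tagged proteins. Its 20S core is a barrel of alpha rings, which gate the entrance, around beta rings, which hold the catalytic sites. A 19S cap, made of a base with ATPases that unfold the substrate and a lid that removes ubiquitin, docks on the barrel, while the PA28 and PA200 activators open it without ubiquitin. Dedicated chaperones, not part of the finished particle, assemble core and base, and interferons exchange the standard catalytic subunits for the immunoproteasome ones. In muscle this system turns over contractile proteins and is known for its role in atrophy.

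The cells were differentiated in vitro for 2 days and treated with gapmers, antisense oligonucleotides that direct cleavage of their target RNA. The GAP-2/3 group and the GAP-2 group received 2 different gapmer sets against Charme, and the GAP-scr group received the control gapmer. Each group had 2 libraries, called A and B, and all shared the same cell type and day of differentiation. The replicates are called biological, but separate cultures are not stated, so p-values measure only the spread between these libraries. The source of the cells and the make-up of each gapmer set are not given in the sources used here, and the level of Charme itself was not analysed here. A separate pull-down of Charme with its bound chromatin (ChIRP-seq) gave a merged list of 798 peaks.

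All 8 myotube markers looked for were in the table, and 7 of the 8 fell in the mean of both gapmer sets against GAP-scr, where 9.57% of all genes tested were lower (limma, adjusted p under 0.05). In GAP-2 against GAP-scr 7 of the 8 fell, beside 4.18% of all genes, and in GAP-2/3 4 of the 8 fell, beside 11.3%. The summed level of the 8 markers was 7034 and 7392 FPKM in GAP-2/3, 6385 and 6566 FPKM in GAP-2, and 10721 and 11388 FPKM in GAP-scr. Of the fibroblast markers, 4 of 6 were in the table, and their sum was 796 to 917 FPKM in GAP-2/3, 1056 to 1256 FPKM in GAP-2 and 1197 to 1226 FPKM in GAP-scr. The members of that list went both ways in GAP-2/3 against GAP-scr, with 2 higher and 1 lower. Of all genes tested, 28% were higher and 11.3% lower there. Dcn was at 123 and 128 FPKM in GAP-2/3, 72.7 and 71.3 FPKM in GAP-2, and 52.6 and 37.2 FPKM in GAP-scr, and Pdgfra also rose. Col1a1 fell and was at 385 and 456 FPKM in GAP-2/3, 789 and 632 FPKM in GAP-2, and 778 and 808 FPKM in GAP-scr. Of the cycling myoblast markers, 4 of 5 were in the table, summing to 45.7 to 52.5 FPKM in GAP-2/3, 34.4 to 38.4 FPKM in GAP-2 and 26.2 to 27.1 FPKM in GAP-scr. In GAP-2/3 3 of the 4 rose, beside 28% of all genes tested. In GAP-2 only Myf5 did, beside 10.4% of all genes, and the median log2 change of the list there was -0.12. Smooth muscle markers were in the table for 3 of 4 genes, summing to 1564 to 1592 FPKM in GAP-2/3, 1362 to 1409 FPKM in GAP-2 and 2090 to 2341 FPKM in GAP-scr. The macrophage list had only Cd68 of its 5 genes in the table, at 0.834 and 0.962 FPKM in GAP-2/3, 2.43 and 3.54 FPKM in GAP-2 and 0.374 and 0.917 FPKM in GAP-scr, and no endothelial or adipocyte marker was in it. The part of these shifts in the proteasome values was not tested. In bulk RNA, fewer cells of a type and less RNA per cell cannot be told apart. The ribosomal precursor Rn45s was at 4090 FPKM in GAP-2 A and 3387 FPKM in GAP-scr A, against 93.2 to 176 FPKM in the other 4 libraries.

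RefSeq promoters (build GRCm38.p6, 250 bases before and 50 after each start) were found for 38 of the 45 genes, 3 of which had 2 starts, giving 41 promoters. Psmb1, Psmb2, Psmb7, Psmc3, Psmd3, Psmd7 and Psmg2 had no entry. The promoters of 5 genes that rose are printed because they belong to different arms of proteasome control: the PA28 pair Psme1 and Psme2 and the immunoproteasome subunit Psmb10 are known interferon-responsive genes, while the base subunit Psmc6 and the base chaperone Psmd5 serve the standard particle. Capitals mark matches to the searched motifs on either strand, in sequences read 5′ to 3′ on the gene's own strand.
Psme1, chr14:55578244-55578543, plus strand: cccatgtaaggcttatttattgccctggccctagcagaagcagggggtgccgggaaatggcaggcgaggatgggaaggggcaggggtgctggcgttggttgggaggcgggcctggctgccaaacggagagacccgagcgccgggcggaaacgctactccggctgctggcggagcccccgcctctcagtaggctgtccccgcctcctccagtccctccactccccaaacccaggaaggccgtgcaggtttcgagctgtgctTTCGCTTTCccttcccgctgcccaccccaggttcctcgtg
Psme2, chr14:55591052-55591351, minus strand: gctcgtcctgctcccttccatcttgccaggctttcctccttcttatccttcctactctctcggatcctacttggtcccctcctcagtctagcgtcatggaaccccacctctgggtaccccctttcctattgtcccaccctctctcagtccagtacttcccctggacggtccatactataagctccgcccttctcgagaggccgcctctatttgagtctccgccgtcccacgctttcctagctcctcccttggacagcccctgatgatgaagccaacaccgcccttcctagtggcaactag
Psmb10, chr8:105938343-105938642, minus strand: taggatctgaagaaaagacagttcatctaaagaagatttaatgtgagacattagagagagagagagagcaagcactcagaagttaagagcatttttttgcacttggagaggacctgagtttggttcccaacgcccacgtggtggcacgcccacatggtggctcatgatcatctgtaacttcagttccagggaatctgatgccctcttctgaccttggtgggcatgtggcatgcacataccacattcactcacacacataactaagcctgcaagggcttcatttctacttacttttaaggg
Psmc6, chr14:45329574-45329873, plus strand: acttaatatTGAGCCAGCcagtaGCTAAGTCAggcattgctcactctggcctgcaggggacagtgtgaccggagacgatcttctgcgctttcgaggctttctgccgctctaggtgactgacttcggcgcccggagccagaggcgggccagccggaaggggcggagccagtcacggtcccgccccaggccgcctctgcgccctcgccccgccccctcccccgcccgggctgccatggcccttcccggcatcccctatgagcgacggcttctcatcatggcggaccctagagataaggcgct
Psmd5, chr2:34870913-34871212, minus strand: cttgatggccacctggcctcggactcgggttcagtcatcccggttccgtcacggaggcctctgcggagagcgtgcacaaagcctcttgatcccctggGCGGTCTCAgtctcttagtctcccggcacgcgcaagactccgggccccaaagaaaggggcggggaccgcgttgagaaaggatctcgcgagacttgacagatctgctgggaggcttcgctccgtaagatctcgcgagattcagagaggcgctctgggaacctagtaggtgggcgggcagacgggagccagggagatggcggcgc

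The antioxidant response core TGACNNNGC, the kind of site that NRF1 and NRF2 bind, was in 6 of the 41 promoters (14.6%), against 14.5% of the promoters of all genes tested and 12.4% of all promoters in the RefSeq table. Its G form, TGAGNNNGC, was in 14 of 41 (34.1%), against 20.1% and 17.6%. The NF-Y box CCAAT was in 13 of 41 (31.7%), against 38% and 37.4%. The interferon response core GAAANNGAA, searched only after the values were seen, was in 7 of 41 (17.1%), against 6.74% and 8.56%. Both strands were searched, and no 2 different motifs overlapped in these promoters. Psme1 held GAAANNGAA starting at base 11 after its start. The other genes with GAAANNGAA were Psmb3, Psmb4, Psmc2, Psmd4, Psmd9 and Psmg4. None of these others passed the limma test in any comparison on the values as deposited with all libraries in the fit. Psme2, at both of its starts, and Psmb10 held none of the 4 motifs, nor did Psmg1. Psmc6 held TGAGNNNGC and TGACNNNGC at positions -241 and -227 from its start, and Psmd5 held TGAGNNNGC at position -153. These matches describe letters in a window and are not binding sites.

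Proteasome genes were abundant. Their median level over the 6 libraries was 123.3 FPKM, against 13.17 FPKM for all 10993 genes tested, and 42 of 45 lay above that median, 32 of them in the top 10% of genes. The catalytic-ring genes stood highest: the 7 constitutive beta genes had a median of 217 FPKM and ran from Psmb5, the chymotrypsin-like subunit, at 107 FPKM to the structural subunit Psmb3 at 383 FPKM. The 7 alpha genes had a median of 180 FPKM and lay within 1.86-fold of each other, from Psma1 at 116 FPKM to Psma7 at 216 FPKM. Base genes had a median of 136 FPKM, with the ATPase Psmc4 lowest at 89.8 FPKM and the ATPase Psmc3 highest at 266 FPKM. Lid genes had a median of 114 FPKM, between Psmd13 at 86.7 FPKM and Psmd8 at 178 FPKM. Genes whose products act on the particle were lower, at a median of 53.8 FPKM for the 4 activators, 36.3 FPKM for the 3 base chaperones and 34.9 FPKM for the 4 core chaperones. Psmf1, the inhibitor PI31, was at 8.53 FPKM and Psmc3ip at 3.81 FPKM. The proteasome genes together took 0.988% to 1.05% of all FPKM in each library.

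**Figure D1:**
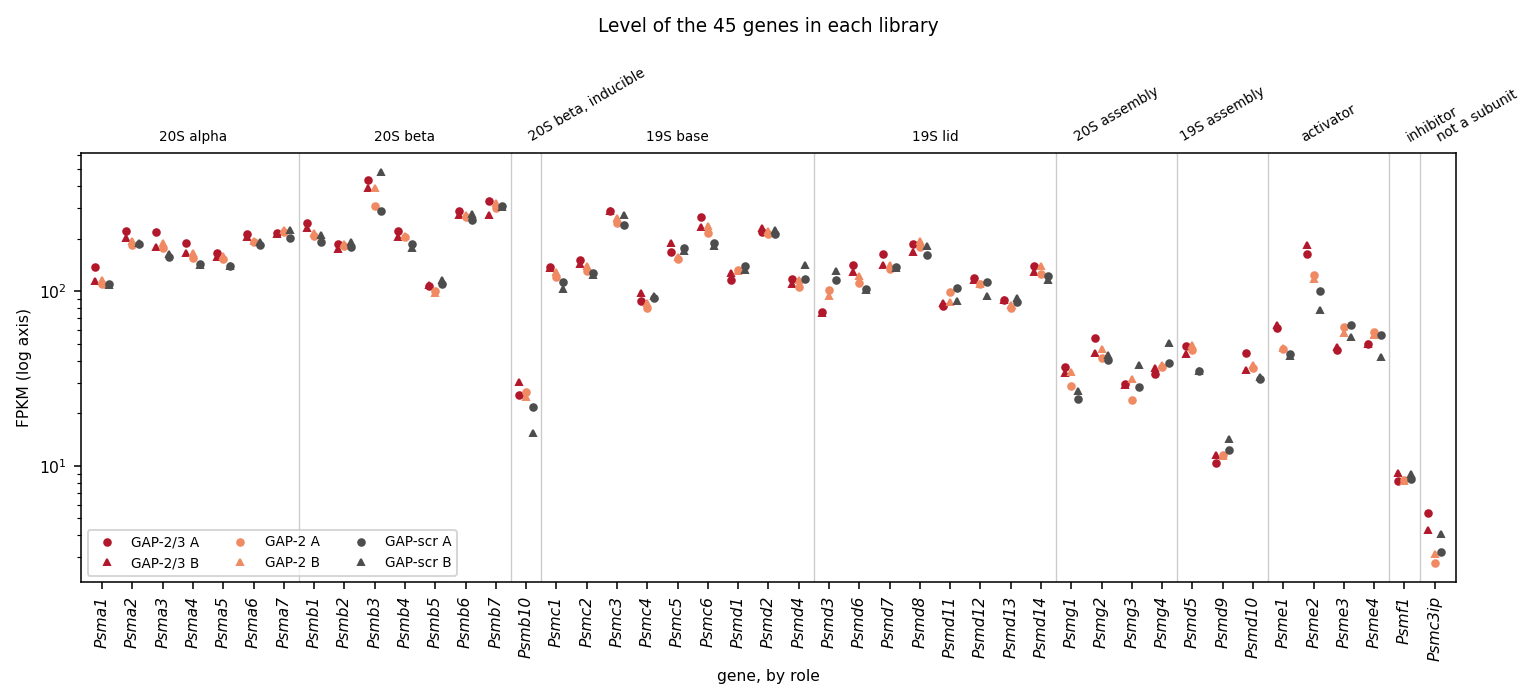
FPKM on a log axis for each of the 45 genes, ordered by role, with 1 point per library (circles replicate A, triangles replicate B). Core and 19S genes sit mostly near or above 100 FPKM in all groups, while chaperones, activators other than Psme2, Psmb10, Psmf1 and Psmc3ip sit lower.

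Most proteasome genes did not pass the test in any comparison: 33 of 45 (73.3%) were called in none, against 54.9% of all genes tested. In the mean of both gapmer sets against GAP-scr, 8 rose and 1 fell, 20% of the 45, against 34.1% of all genes tested (limma on log2(FPKM + 1), adjusted p under 0.05). In GAP-2/3 against GAP-scr, 9 rose and 2 fell, 24.4%, against 39.3% of all genes (28% higher and 11.3% lower). In GAP-2 against GAP-scr, 2 rose and none fell, 4.44%, against 14.6% of all genes (10.4% higher and 4.18% lower). In each of these comparisons the share called was below the background. The GAP-scr libraries are shared by these comparisons, so they are not independent. The median log2 change of the 45 genes was 0.08 for the mean of both sets, 0.16 for GAP-2/3 and 0.03 for GAP-2, against 0.10, 0.13 and 0.07 for all genes tested. The 95% interval of the mean comparison lay within 0.5 log2 either side of 0 for 37 of 45 genes (82.2%), against 56.8% of all genes. The 45 genes had a higher median level, 123.3 FPKM against 13.17 FPKM, and the part of level in this share was not tested.

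The balance of higher and lower calls depended on scaling, and the median change of all genes was above 0 in the values as deposited. None of the 45 genes that was called changed sign under either scaling. With libraries scaled to one median, 3 rose and 3 fell in the mean comparison, 4 rose and 5 fell in GAP-2/3, and 1 fell in GAP-2. With quantile normalization the counts were 5 and 3, 6 and 4, and 1 and 1. Of all genes tested, 29%, 34.1% and 12.4% were called with one median, and 29.7%, 34.4% and 12.5% with quantile normalization. The counts of the 45 genes also moved with single libraries. In each such run named here, the share called among all genes moved in the same direction. In the mean comparison 15 genes were called without GAP-scr A, 5 without GAP-2/3 A and 4 without GAP-2 B. In GAP-2/3 against GAP-scr 3 were called without GAP-2/3 A. In GAP-2 against GAP-scr 9 were called without GAP-scr A, 1 without GAP-scr B or either GAP-2/3 library, and 0 without either GAP-2 library. All 4 gapmer libraries lay above both GAP-scr libraries for 16 genes and below both for 5, which is 46.7% of the 45, against 45.9% of all genes tested.

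**Figure D2:**
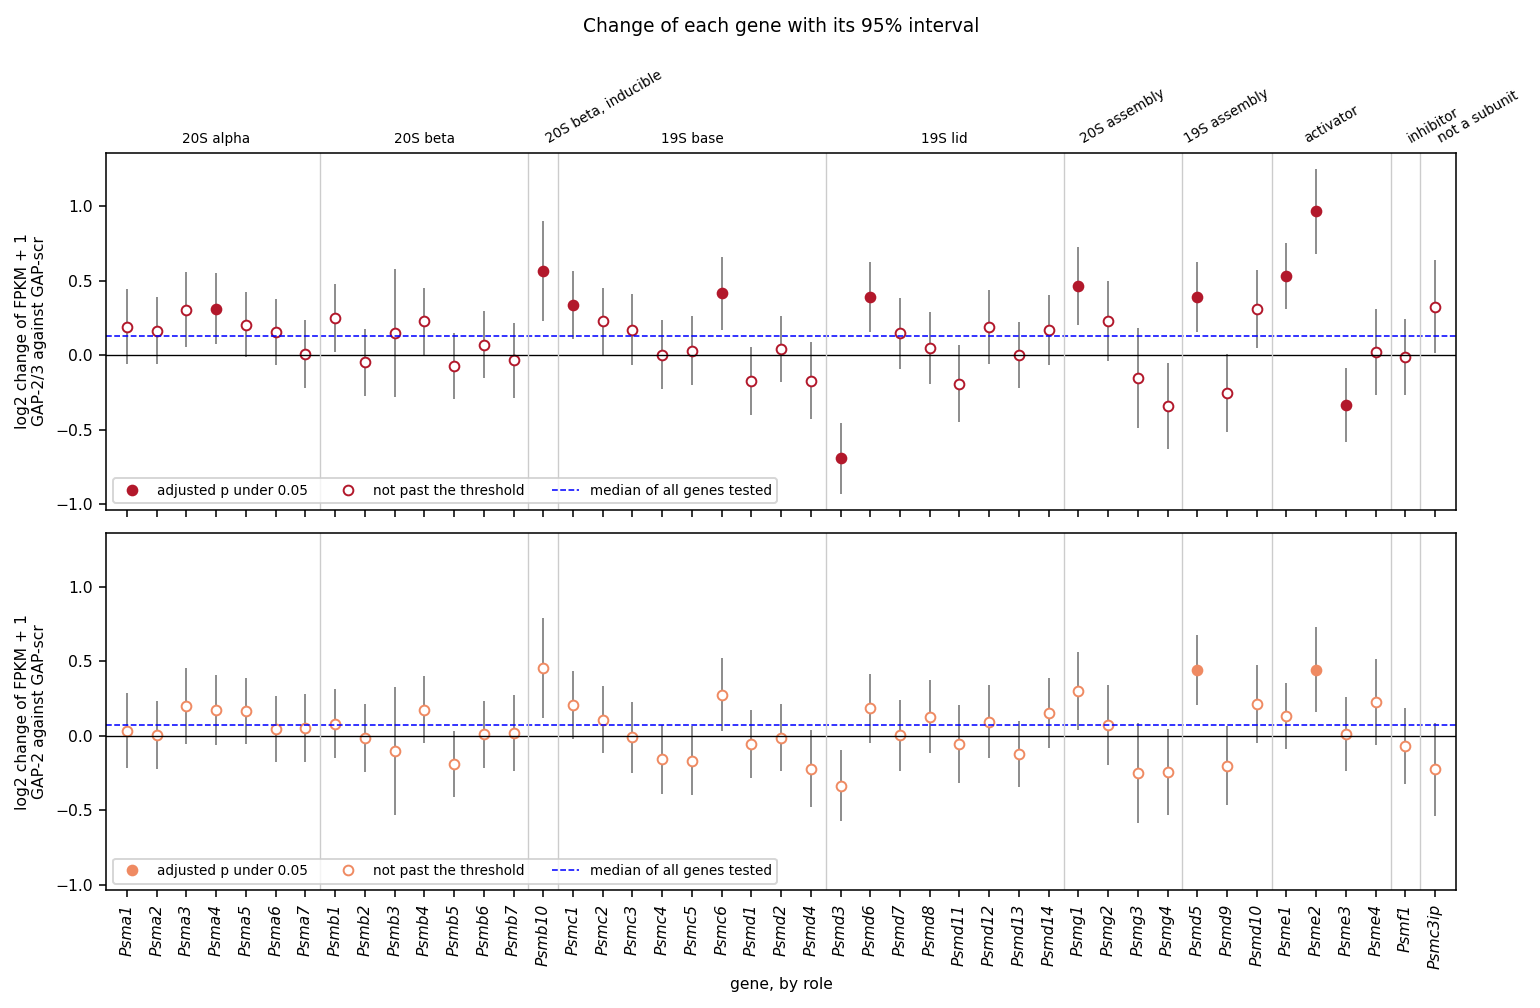
Log2 change of FPKM + 1 with its 95% interval for each of the 45 genes, GAP-2/3 against GAP-scr above and GAP-2 against GAP-scr below. Filled points passed an adjusted p of 0.05, and the dashed line is the median of all genes tested. In GAP-2/3 the filled points are spread over the base, lid, chaperone and activator groups with 1 alpha gene and Psmb10, in GAP-2 they are Psmd5 and Psme2, and the lowest point is Psmd3.

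The standard core showed little difference between groups. None of the 14 alpha and constitutive beta genes was called in the mean comparison, against 34.1% of all genes. All 14 intervals lay within 0.5 log2 either side of 0, against 56.8% of all genes, which had a lower median level than these 14. Their median log2 change was 0.09 in the mean comparison and ranged from -0.13 for Psmb5 to 0.25 for Psma3. In GAP-2/3 against GAP-scr 1 of the 14 was called, the alpha subunit Psma4, at 189 and 165 FPKM in GAP-2/3, 155 and 166 FPKM in GAP-2, and 143 and 142 FPKM in GAP-scr. Its log2 change was 0.31 ± 0.11 (SE) with an adjusted p of 0.039 (limma). That call ended without GAP-scr B, GAP-2 A, GAP-2 B or GAP-2/3 A (adjusted p 0.0566, 0.0808, 0.081 and 0.241, limma) and under both scalings (0.196 and 0.13, limma). Psmb7, the trypsin-like subunit, was at 328 and 272 FPKM in GAP-2/3, 301 and 321 FPKM in GAP-2, and 308 and 305 FPKM in GAP-scr, so the groups overlapped. Psmb3 had the largest SE of the core genes and was at 434 and 393 FPKM in GAP-2/3, 309 and 390 FPKM in GAP-2, and 288 and 481 FPKM in GAP-scr. The reference annotation lists pseudogenes of Psma5, Psmb5, Psmb6 and Psmb7, so the split of reads between those genes and their copies is uncertain.

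Psmb10, the inducible subunit that takes the place of Psmb7 in the immunoproteasome, was the only immunoproteasome catalytic gene examined, since Psmb8 and Psmb9 were not analysed here. It was at 25.3 and 30.4 FPKM in GAP-2/3, 26.5 and 24.7 FPKM in GAP-2, and 21.8 and 15.5 FPKM in GAP-scr. All 4 gapmer libraries lay above both GAP-scr libraries, as for 3507 of all 10993 genes tested, and the GAP-scr libraries were themselves apart. It rose by 0.51 ± 0.13 log2 in the mean comparison (limma, adjusted p = 0.013) and by 0.57 ± 0.15 in GAP-2/3 (limma, adjusted p = 0.0135), and its change in GAP-2 was 0.45 ± 0.15 (limma, adjusted p = 0.0675). The mean call ended without GAP-scr B, at 0.28 (limma, adjusted p = 0.112), and without GAP-2/3 B, at 0.45 (limma, adjusted p = 0.0616). The GAP-2/3 call ended without GAP-scr B, GAP-2/3 A or GAP-2/3 B (limma, adjusted p 0.071, 0.0561 and 0.128). Psmb10 made up 3.38% and 4.43% of the summed FPKM of the catalytic genes present (Psmb5, Psmb6, Psmb7 and Psmb10) in GAP-2/3, 3.81% and 3.45% in the GAP-2 libraries, and 3.13% and 2.16% in GAP-scr. The standard catalytic genes thus made up nearly all of that sum in every library.

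In the 19S base, 2 of 9 genes rose and none fell in the mean comparison, against 24.5% higher and 9.57% lower among all genes. Both were ATPases of the ring that unfolds substrates. Psmc6 was at 266 and 233 FPKM in GAP-2/3, 214 and 237 FPKM in GAP-2, and 189 and 183 FPKM in GAP-scr, a log2 change of 0.35 ± 0.10 (limma, adjusted p = 0.018). Psmc1 was at 138 and 135 FPKM in GAP-2/3, 121 and 128 FPKM in GAP-2, and 113 and 103 FPKM in GAP-scr, a log2 change of 0.27 ± 0.09 (limma, adjusted p = 0.036). For both genes all 4 gapmer libraries lay above both GAP-scr libraries, as they did for 3507 of all 10993 genes tested. The Psmc6 call ended without GAP-2 B or GAP-2/3 A (limma, adjusted p 0.0912 and 0.0703), and the Psmc1 call ended without any 1 library other than GAP-scr A (limma, adjusted p between 0.0656 and 0.156). Under both scalings neither gene was called, and the base then had no call in the mean comparison. Psmd4, a ubiquitin receptor of the base, had the lowest value of the group, -0.20 ± 0.10 (limma, adjusted p = 0.154).

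In the 19S lid, 1 of 8 genes rose and 1 fell in the mean comparison, where 24.5% of all genes were higher and 9.57% lower, and under both scalings none rose and 1 fell. Psmd3, a scaffold subunit of the lid, was at 76.6 and 75.2 FPKM in GAP-2/3, 101 and 93.8 FPKM in GAP-2, and 116 and 131 FPKM in GAP-scr. The 3 groups did not overlap, with GAP-2/3 lowest and GAP-scr highest. Psmd3 fell by 0.51 ± 0.09 log2 in the mean comparison (limma, adjusted p = 0.0024) and by 0.69 ± 0.11 in GAP-2/3 (limma, adjusted p = 0.00081), while the change in GAP-2 was -0.33 ± 0.11 (limma, adjusted p = 0.06). This was the lowest log2 change of the 45 genes in all 3 comparisons against GAP-scr, and the mean and GAP-2/3 calls held under every alternative run. Psmd3 made up 7.70% and 8.04% of the summed lid FPKM in GAP-2/3, 10.8% and 9.65% in the GAP-2 libraries, and 12.2% and 14.0% in GAP-scr. The summed lid level itself was 995 and 935 FPKM in GAP-2/3, 941 and 972 FPKM in GAP-2, and 946 and 939 FPKM in GAP-scr, and so did not follow Psmd3.

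Psmd6, another structural lid subunit, was at 141 and 129 FPKM in GAP-2/3, 111 and 122 FPKM in GAP-2, and 104 and 101 FPKM in GAP-scr. All 4 gapmer libraries lay above both GAP-scr libraries, as for 3507 of all 10993 genes tested. The log2 change of Psmd6 was 0.29 ± 0.09 (limma, adjusted p = 0.033). The call ended without GAP-scr B, GAP-2 A, GAP-2 B or GAP-2/3 A (limma, adjusted p 0.0759, 0.0624, 0.155 and 0.0965) and under both scalings (0.14 and 0.061, limma). Psmd14, the deubiquitinase of the lid, had 0.16 ± 0.09 and was not called (limma, adjusted p = 0.194).

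Among the 12 assembly, activator and inhibitor genes, 4 rose and none fell in the mean comparison, 33.3%, against 34.1% of all genes called. With libraries scaled to one median or quantile normalized, 2 rose and 2 fell, and 4 rose and 2 fell. Psmd5, a chaperone of the base, was at 48.4 and 43.7 FPKM in GAP-2/3, 46.4 and 49.1 FPKM in GAP-2, and 35.0 and 34.8 FPKM in GAP-scr. Both gapmer groups lay above the tight GAP-scr pair, an order found for 3507 of all 10993 genes tested. The log2 change of Psmd5 was 0.41 ± 0.09 in the mean comparison (limma, adjusted p = 0.0066), a call that held under every alternative run. In GAP-2 its change was 0.44 ± 0.11 (limma, adjusted p = 0.02), a call that ended without GAP-2 A or GAP-2 B (limma, adjusted p 0.101 and 0.212), without both libraries highest in Rn45s (0.0649, limma) and with libraries scaled to one median (0.0513, limma). The other base chaperones, Psmd10 (gankyrin) and Psmd9, had 0.26 ± 0.10 and -0.23 ± 0.10 and were not called (limma, adjusted p 0.0697 and 0.112).

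Of the core chaperones, Psmg1, which forms a pair with Psmg2 that starts the alpha ring, was at 36.6 and 34.2 FPKM in GAP-2/3, 28.8 and 34.4 FPKM in GAP-2, and 24.2 and 26.7 FPKM in GAP-scr. It rose by 0.38 ± 0.10 log2 in the mean comparison (limma, adjusted p = 0.017). The call ended without GAP-scr A, GAP-2 B or GAP-2/3 A (limma, adjusted p 0.0624, 0.0864 and 0.0667) and with libraries scaled to one median (0.0645, limma). Its partner Psmg2 had 0.15 ± 0.11 (limma, adjusted p = 0.284). Psmg3 and Psmg4, the second pair of core chaperones, had -0.20 ± 0.13 and -0.29 ± 0.11 and were not called (limma, adjusted p 0.258 and 0.069). Of the 4 core chaperones 1 was called, 25%, against 34.1% of all genes. The pairs had values of opposite sign, but the sign of the Psmg3 and Psmg4 pair rests on uncalled values.

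The activators held the largest change. Psme2, the beta subunit of PA28, was at 164 and 184 FPKM in GAP-2/3, 124 and 118 FPKM in GAP-2, and 101 and 77.8 FPKM in GAP-scr. The 3 groups did not overlap. Its log2 change was 0.70 ± 0.11 in the mean comparison (limma, adjusted p = 0.0012) and 0.97 ± 0.13 in GAP-2/3 (limma, adjusted p = 0.00034), both held under every alternative run. In GAP-2 it was 0.44 ± 0.13 (limma, adjusted p = 0.042). That call ended without GAP-scr B, at 0.26 (limma, adjusted p = 0.153), and without GAP-2 A, GAP-2 B, GAP-2/3 A or GAP-2/3 B (limma, adjusted p 0.194, 0.156, 0.0843 and 0.0847). It also ended with libraries scaled to one median, with quantile normalization and without the intensity trend (limma, adjusted p 0.0812, 0.0716 and 0.0525). The reference annotation also holds Psme2b, a near-identical coding copy, so the counting of reads between the copies is uncertain.

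Psme1, the alpha subunit of PA28, was at 61.5 and 63.7 FPKM in GAP-2/3, 46.9 and 47.6 FPKM in GAP-2, and 43.7 and 42.4 FPKM in GAP-scr. It rose by 0.53 ± 0.10 log2 in GAP-2/3 (limma, adjusted p = 0.0025), a call that held under every alternative run, and by 0.33 ± 0.09 in the mean comparison (limma, adjusted p = 0.015). The mean call ended without GAP-2 A or GAP-2 B (limma, adjusted p 0.0538 and 0.0704) and with libraries scaled to one median (0.0559, limma). Psme1 and Psme2 lie close together on chromosome 14 with only Emc9 between them among protein-coding genes. The ratio of Psme2 to Psme1 was 2.67 and 2.88 in GAP-2/3, 2.64 and 2.48 in the GAP-2 libraries, and 2.30 and 1.83 in GAP-scr, all 4 gapmer libraries above both GAP-scr libraries.

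Psme3, the nuclear activator PA28 gamma, was at 46.1 and 48.0 FPKM in GAP-2/3, 62.4 and 57.6 FPKM in GAP-2, and 64.2 and 55.1 FPKM in GAP-scr. It fell by 0.33 ± 0.11 log2 in GAP-2/3 (limma, adjusted p = 0.037), a call that ended without any 1 library other than GAP-scr B (limma, adjusted p between 0.069 and 0.171). In GAP-2 its change was 0.01 ± 0.11, with an interval of -0.24 to 0.26. The summed PA28 alpha and beta level over Psme3 was 4.90 and 5.16 in GAP-2/3, 2.73 and 2.87 in the GAP-2 libraries, and 2.25 and 2.18 in GAP-scr. Psme4, the activator PA200, was at 49.7 and 49.6 FPKM in GAP-2/3, 58.1 and 56.4 FPKM in GAP-2, and 56.4 and 42.3 FPKM in GAP-scr and was called in no comparison. The inhibitor Psmf1 stayed between 8.15 and 9.11 FPKM in all 6 libraries, with a mean log2 change of -0.04 ± 0.10 (limma, adjusted p = 0.782).

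**Figure D3:**
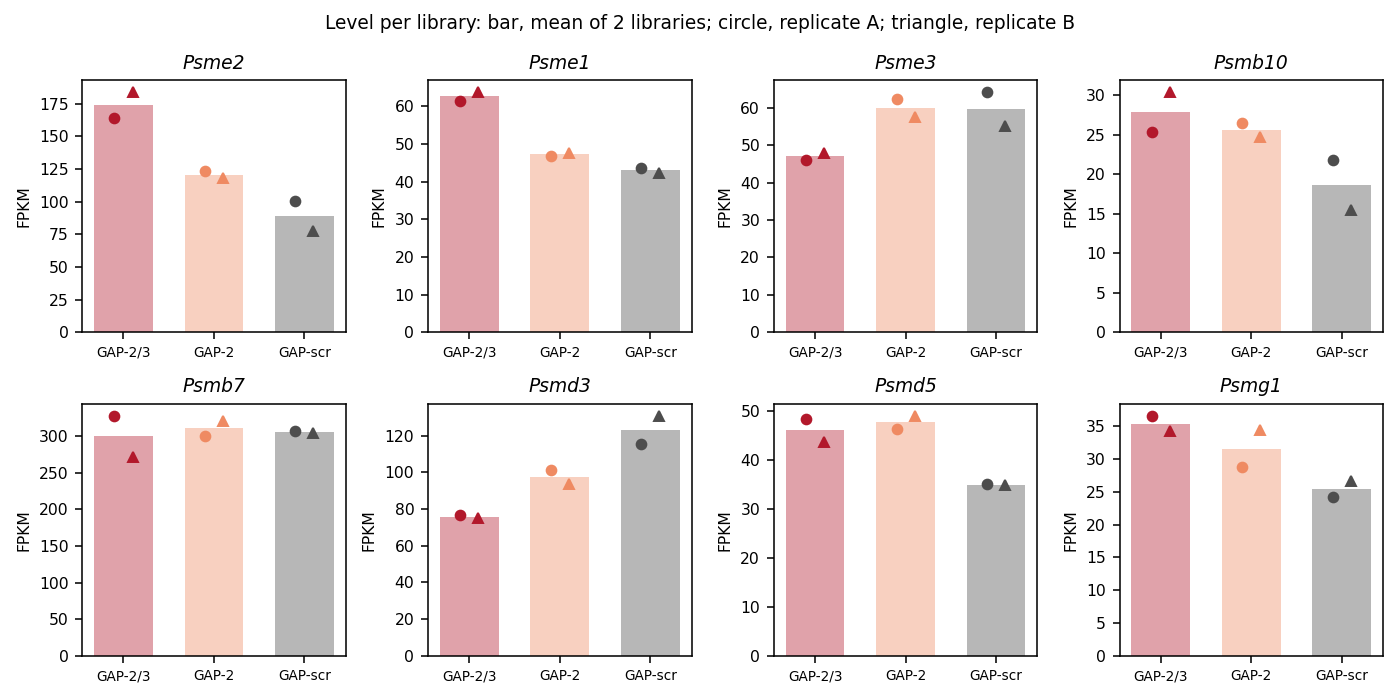
FPKM of 8 genes in each library, with bars at the mean of 2 libraries and axes from 0. GAP-2/3 is highest for Psme2 and Psme1 and lowest for Psme3 and Psmd3, both gapmer sets exceed GAP-scr for Psmb10, Psmd5 and Psmg1, and Psmb7 overlaps across groups.

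The gapmer sets were compared directly to ask where they differed. Between GAP-2/3 and GAP-2, 3 of 45 genes were higher and none lower, 6.67%, against 10.1% of all genes tested, 6.5% higher and 3.65% lower. They were Psme2 at 0.52 ± 0.13 log2 (limma, adjusted p = 0.027), Psme1 at 0.40 ± 0.10 (limma, adjusted p = 0.029) and Psmc3ip at 0.55 ± 0.14 (limma, adjusted p = 0.032). Psmc3ip was at 5.34 and 4.29 FPKM in GAP-2/3, 2.78 and 3.15 FPKM in GAP-2, and 3.21 and 4.08 FPKM in GAP-scr, so GAP-scr lay between them. None of the 3 calls held when any 1 GAP-2/3 or GAP-2 library was left out, and fewer of all genes were then called as well. Without GAP-scr A or GAP-scr B more of the 45 genes were called, as were more of all genes. Scaling to one median left 2 higher and none lower, and quantile normalization gave 1 higher and 1 lower. Of all genes, 8.35% and 9.05% were then called. Psmc3ip was called under neither scaling (limma, adjusted p 0.0602 and 0.0673), and Psme2 not with quantile normalization (0.0638, limma). Psmd3 and Psme3 had -0.36 ± 0.11 and -0.34 ± 0.11 and missed the threshold (limma, adjusted p 0.0588 and 0.0783).

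**Figure D4:**
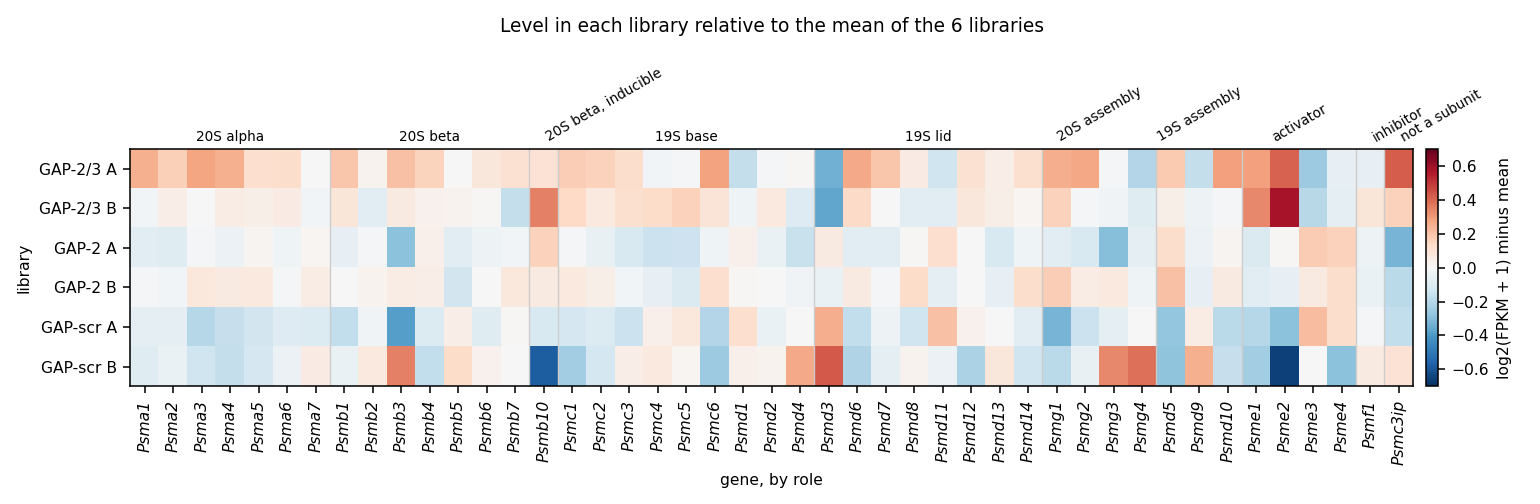
Log2(FPKM + 1) of each of the 45 genes in each library minus the mean of the 6 libraries, red above and blue below. GAP-2/3 A is above the mean for 32 genes, and GAP-scr B holds the lowest value, -0.65 for Psme2, while replicates of 1 group often differ in shade.

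Library by library, the 45 genes stood above their own 6-library mean in 32 and 28 cases in GAP-2/3, 13 and 26 in the GAP-2 libraries, and 13 and 19 in GAP-scr. The median deviation was 0.11 and 0.04 log2 in GAP-2/3, -0.03 and 0.01 in the GAP-2 libraries, and -0.08 and -0.04 in GAP-scr. Replicates of GAP-2 thus differed in this count about as much as groups did.

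Other genes of the pathway gave calls in both directions. Of 20 proteasome partners tested, 6 rose and 1 fell in the mean comparison, against 24.5% higher and 9.57% lower among all genes. With libraries scaled to one median none rose and 3 fell, and with quantile normalization 2 rose and 3 fell. The proteasome deubiquitinase Usp14 rose by 0.37 ± 0.10 and the ubiquitin ligase Ube3c by 0.34 ± 0.09 (limma, adjusted p 0.015 and 0.017), calls lost with libraries scaled to one median, without GAP-2 B, for Usp14 without GAP-2/3 A and for Ube3c without both libraries highest in Rn45s, at adjusted p up to 0.0768 and 0.0922 (limma).

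Of the 6 ubiquitin and E1 genes 2 rose and 1 fell, beside shares of 24.5% higher and 9.57% lower among all genes, and under both scalings 1 rose and 1 fell. Uba6, a second ubiquitin-activating enzyme, rose by 0.54 ± 0.11 log2 (limma, adjusted p = 0.0036), called under every alternative run. The ubiquitin fusion gene Rps27a rose by 0.36 ± 0.11 (limma, adjusted p = 0.023). The Rps27a call ended without any 1 library other than GAP-scr A and under both scalings, at adjusted p up to 0.0898 (limma).

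Of the 10 regulators of proteasome genes 2 rose and 2 fell, where all genes gave 24.5% higher and 9.57% lower. With libraries scaled to one median none rose and 2 fell, and with quantile normalization 1 rose and 2 fell. The small Maf partners Maff and Mafk, which pair with NRF1 and NRF2, fell by 0.46 ± 0.11 and 0.41 ± 0.10 log2 (limma, adjusted p 0.0079 and 0.011), and the Mafk call ended without GAP-2 B (0.0565, limma). Nfe2l2, which encodes NRF2, rose by 0.35 ± 0.10 (limma, adjusted p = 0.016), a call lost without GAP-scr B or GAP-2 B and with libraries scaled to one median, at adjusted p up to 0.09 (limma). Nfe2l1, which encodes NRF1, the factor known to raise proteasome genes when the proteasome is inhibited, was singled out after its values were seen. It was at 86.9 and 101 FPKM in GAP-2/3, 138 and 138 FPKM in GAP-2, and 133 and 119 FPKM in GAP-scr. In GAP-2/3 against GAP-scr 3 of the 10 regulators rose and 4 fell, where 28% of all genes were higher and 11.3% lower. Nfe2l1 was among the 4, at -0.43 ± 0.11 log2 (limma, adjusted p = 0.012). That call was lost without GAP-2/3 A and without both libraries highest in Rn45s. Nfe2l1 also differed between the gapmer sets. It was lower in GAP-2/3 than in GAP-2 by -0.56 ± 0.11 log2 (limma, adjusted p = 0.011), a call lost without any 1 library of those groups, at adjusted p up to 0.138 (limma).

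Of 8 NRF2 targets 5 rose and none fell in the mean comparison, against 24.5% higher and 9.57% lower of all genes, and 4 rose with libraries scaled to one median. The sets differed. In GAP-2 against GAP-scr 6 rose and none fell, where 10.4% of all genes were higher and 4.18% lower. In GAP-2/3 against GAP-scr 4 rose and 1 fell, where 28% of all genes were higher and 11.3% lower. The gene that fell was the cystine transporter gene Slc7a11, by 0.65 ± 0.18 log2 (limma, adjusted p = 0.0152). Between GAP-2/3 and GAP-2, 4 of the 8 were lower and none higher, against 3.65% and 6.5% of all genes. The quinone reductase Nqo1 was at 32.1 and 31.1 FPKM in GAP-2/3, 35.6 and 38.0 FPKM in GAP-2, and 5.62 and 6.62 FPKM in GAP-scr, a log2 change of 2.30 ± 0.10 (limma, adjusted p = 8.45e-08). Gclc, for glutathione synthesis, rose by 0.83 ± 0.10 and the sulfiredoxin Srxn1 by 0.80 ± 0.10 (limma, adjusted p 0.00017 and 0.00023). These 3 were called under every alternative run. None of the standard core genes was called in the same comparison, where 34.1% of all genes were. A link between the NRF2 targets and the core genes was not tested.

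Of 11 antigen processing and interferon genes 4 rose and 1 fell, as they did under both scalings, against 24.5% and 9.57% of all genes. The guanylate-binding protein gene Gbp2 was at 13.1 and 12.3 FPKM in GAP-2/3, 1.30 and 1.20 FPKM in GAP-2, and 0.694 and 0.469 FPKM in GAP-scr. It is among the 4, but it reached a mean of 1 FPKM only through GAP-2/3, so no test is given for it. That way of entry favours a rise, so 4 of 11 overstates the share set beside all genes. The ubiquitin-like modifier Isg15 rose by 0.77 ± 0.11 (limma, adjusted p = 0.0005). The class I antigen gene H2-K1 fell by 0.72 ± 0.13 (limma, adjusted p = 0.0027), and its reads may be shared with paralogs such as H2-D1. Isg15 and H2-K1 were called under every alternative run.

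Charme ChIRP peaks overlapped 1 of the 45 genes, the lid subunit gene Psmd11 (2.22%), against 1.74% of the 10950 tested genes with a RefSeq position. With 10 kb added on both sides, Psmf1 joined it (4.44%, against 2.53%). Psmd11 was at 82.4 and 86.0 FPKM in GAP-2/3, 98.7 and 86.4 FPKM in GAP-2, and 105 and 88.1 FPKM in GAP-scr and was called in no comparison. The peak list names no build. It was matched to GRCm38 positions by inference although the submitters' processing notes name mm9, and the nearest peak to Psme2 was then 226 kb away.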

How the data were processed

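RNA-seq of polyA RNA from 6 libraries, 2 in each of 3 groups, was taken as the FPKM that the authors deposited. The submitters' processing notes name CASAVA, FastQC, Trimmomatic, cutadapt, Bowtie2, TopHat2, Cufflinks, Cuffdiff, MACS, bedtools and mm9, with no roles or versions. Counts were not used, so depth is unknown and no count model was fitted. The score that the authors deposited with each merged ChIRP peak was not used, only the position; peaks come from a merged list without replicates.

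Testing was limited to genes averaging 1 FPKM or more (10993 of 11228; 235 were below) on log2(FPKM + 1), which understates changes of low genes. One limma fit (limma 3.58.1, R 4.3.3, intensity trend) over all 3 groups gave 4 comparisons, with Benjamini-Hochberg adjustment over all genes tested and a threshold of 0.05. Errors of log2 changes are SE, and intervals cover 95%. Named genes were the 3 highest and 3 lowest changes per comparison, the catalytic, assembly, activator and inhibitor genes, the extremes of level per role, and up to 3 genes per pathway list, of which some are not reported here. The genes, lists and tests were chosen with earlier results of these data known.

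The fit was tested on simulated data with 200 changed genes. The first noise model, each gene's own residual SD, recovered fewer changed genes than required, and a second one, limma's moderated SD, was added after that. Both were kept. Estimates were unbiased under both, fewer changes were recovered under the first, and false calls under the second exceeded the nominal share, so calls close to the threshold are weak. Alternatives covered pseudocount, filter, scaling, trend, threshold, replicate block, libraries in the fit, and each library left out in turn. The share planned over the 6 catalytic genes used the 4 with a row. Symbols Psma8, Psmb8, Psmb9, Psmb11, Psme2b and Psme3ip1 were not analysed here. Sequences are RefSeq, build GRCm38.p6. Python 3.11.15, pandas 2.3.3 and matplotlib 3.10.9 were used.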

Additional observations from a re-analysis of the deposited data

Results flagged for a closer look

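The effect of the gapmer sets differed from each other, by the direct test of GAP-2/3 against GAP-2, for 3 of the 45 genes. That was 6.67%, against 10.1% of all genes tested, and Psmc3ip among them does not encode a proteasome protein. The log2 difference was 0.5217 for Psme2, 0.4 for Psme1 and 0.5491 for Psmc3ip (limma, adjusted p 0.027, 0.029 and 0.032). All 3 calls were lost when any 1 GAP-2/3 or GAP-2 library was left out, with limma adjusted p between 0.0752 and 0.281.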

How the results depend on the processing

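At each scaling, trend and threshold named here, the share of all genes called moved in the same direction as the count of the 45. Beside the counts without single libraries, the number of the 45 genes called moved as follows. In GAP-2 against GAP-scr, where 2 were called, it was 1 with libraries scaled to one median, 1 without the intensity trend, 1 with only the compared libraries in the fit and 4 at a threshold of 0.1. In GAP-2/3 against GAP-scr, where 11 were called, it was 17 at a threshold of 0.1. In GAP-2/3 against GAP-2, where 3 were called, it was 5 at a threshold of 0.1, 5 with only the compared libraries and 1 without both libraries highest in Rn45s. Leaving out each library in turn gave 4 to 15 genes in the mean comparison, 0 to 9 in GAP-2, 3 to 14 in GAP-2/3 and 0 to 5 between the gapmer sets. Without both libraries highest in Rn45s the mean calls of Psmc1, Psmd6, Psmg1 and Psme1 also ended. Genes near ChIRP peaks numbered 2 with 10 kb added. The causes were not tested. Psmb3, not called, passed with opposite signs without GAP-scr A (-0.34) and without GAP-scr B (0.39).

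The replicate letters were not taken to pair the samples, since not every pair of groups had a positive correlation. Deviations of A from B over all genes correlated at -0.181 for GAP-2/3 and GAP-2, -0.131 for GAP-2/3 and GAP-scr and 0.36 for GAP-2 and GAP-scr, and over the 45 genes at -0.473, -0.264 and 0.636. GAP-2 A and GAP-scr A also share the high Rn45s level. With the letter as a replicate block, 10, 3, 12 and 3 genes were called in the mean, GAP-2, GAP-2/3 and direct comparisons. Of all genes tested, 35.9%, 17.8%, 40.6% and 13.4% were called. Depth is unknown.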
